A study of Mus musculus with 10 samples.

Results

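The comparison described here sets supporting cells cultured for 5 days with the Lats-kinase inhibitor TRULI against supporting cells cultured for 5 days with its solvent, dimethylsulphoxide (DMSO). Its members are 6 of the 10 RNA-sequencing libraries of the series, chosen by the names under which their tables were deposited: 3 named for TRULI at 5 days and 3 named for DMSO at 5 days. All 6 came from utricles of Lfng-EGFP mice aged 21 days after birth, which were explanted and cultured, and the GFP-positive supporting cells were then sorted by flow cytometry. The control cultures received 0.1% DMSO, and the treated cultures received 10 μM TRULI in the same 0.1% DMSO. The reporter marks cells that use the Lfng promoter, so a cell without its fluorescence would not have been collected. Whether the fluorescence outlasts the activity of the promoter was not tested. The other 4 libraries, 2 with TRULI and 2 with DMSO by deposited name, had 5 further days without treatment and serve here only as a second time point. The question is which genes moved with TRULI beyond the cell cycle and 6 known Yap targets.

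Lats1 and Lats2 are the last kinases of the Hippo cascade. They phosphorylate Yap and Taz, which keeps these co-activators out of the nucleus, and when the kinases are blocked Yap and Taz bind Tead factors and drive their target genes. In the utricle, a gravity-sensing organ of the inner ear, supporting cells surround the sensory hair cells, couple to one another through gap junctions, secrete the matrix that overlies the epithelium and, in the mature mammal, scarcely divide.

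The sample labels and the deposited names disagree for 4 of the 10 libraries, and 2 of those are among the 6 described here. The libraries named TRULI replicates 2 and 3 carry labels for DMSO withdrawal replicates 1 and 2, and the library named TRULI replicate 1 carries a label for TRULI at 5 days, replicate 3. The 3 DMSO libraries carry the same condition and number in both. All results below follow the deposited names, and TRULI replicate 1 is given first in every list of values because it is the only treated library on which both sources agree. Where levels are set against each other, those of DMSO replicates 1 to 3 come before those of TRULI replicates 1 to 3. The 6 tables sum to between 2463872 and 4235355 counts, and the smallest amount distinguishable from nothing, taken as 3 counts in a library, was between 0.795 and 1.4 CPM, counts scaled to library size. The mitochondrial ribosomal RNA mt-Rnr2 took between 13% and 26.4% of the counts in these 6 libraries and between 1.45% and 2.53% in the other 4. The study states that each condition had biological replicates but the labels tie no library to an animal, so the p-values measure the spread between these libraries.

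After 5 days with TRULI, 239 of 10952 tested protein-coding genes rose and 120 fell, by the edgeR quasi-likelihood test with p-values adjusted after Benjamini and Hochberg, a limit of 0.05 and a change of more than 1 on the log2 scale. These are 2.18% and 1.1% of the tested genes, and 66.57% of the called genes were higher. Genes of 3 cell-cycle lists supplied 82 of the increases and no decrease among their 264 tested members, and Ccn2, Ajuba, Myc and Amotl2 rose among the 5 tested genes of a list of 6 Yap targets. The study plots more Yap targets than these, and its set was not used here. Outside both sets, 153 genes rose and all 120 decreases remained, and the 153 can include other Yap targets that the study plots. Over these genes the median log2 fold change was 2.13 for the increases and -1.39 for the decreases, against 0.01 over all tested genes. Of the 153 increases 83 exceeded 2 on the log2 scale, and 27 of the 120 decreases went beyond -2.

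**Figure D1:**
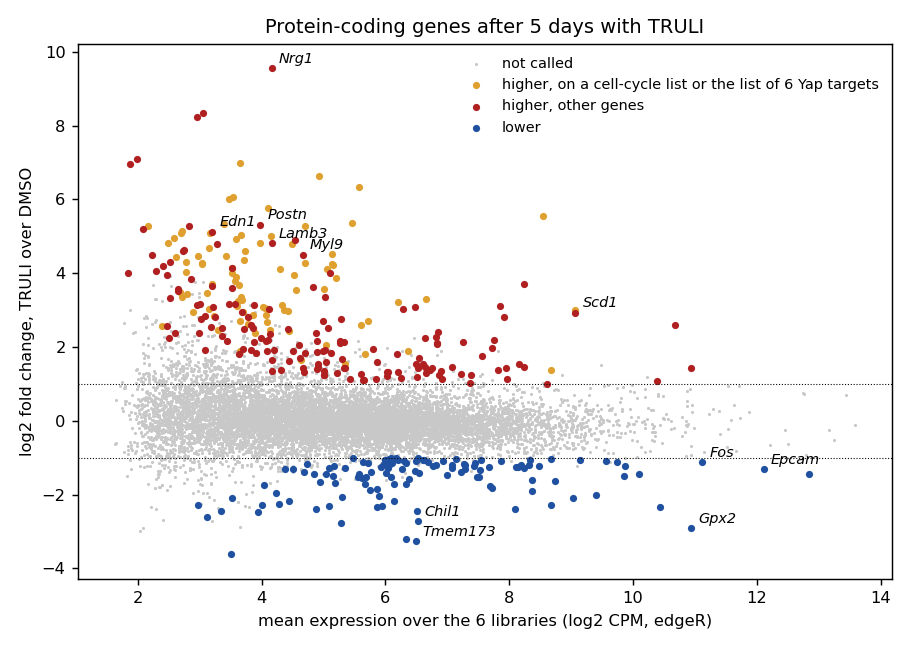
Each point is 1 of 10952 tested protein-coding genes, with its mean expression over the 6 libraries (log2 CPM) on the horizontal axis and its log2 fold change of TRULI over DMSO on the vertical axis. The 153 increases outside the cell-cycle lists and the list of 6 Yap targets are red, the 86 within them are yellow, the 120 decreases are blue, and dotted lines mark a change of 1. The red points reach up to 9.55 and the blue points down to -3.62.

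In every called gene the 3 TRULI libraries lay on one side of the 3 DMSO libraries, where 11% of all tested genes had all TRULI libraries above and 10.3% all below. The number of calls depended on single libraries. Leaving out DMSO replicate 2 gave 47 increases and 17 decreases, leaving out DMSO replicate 3 gave 106 and 54, leaving out TRULI replicate 2 gave 113 and 43, leaving out DMSO replicate 1 gave 171 and 79, and leaving out TRULI replicate 1 gave 249 and 60. With TRULI replicate 1 as the only treated library, 113 genes rose and 44 fell (0.976% and 0.38% of 11576), among them 50 of the 153 increases and 34 of the 120 decreases. In that library all 153 lay above the highest control and all 120 below the lowest, where 28.5% and 26.3% of all tested genes did. That outcome already follows from the separation of every called gene given above. The library was also part of the fit that chose these genes, so the outcome is no separate evidence from it. With the groups of the sample labels 1 gene rose, Lcn2, and none fell by edgeR (0.00939% and 0% of 10646), although 1477 genes had an unadjusted p under 0.05. The replicate numbers of the deposited names were taken to pair the libraries, because same-numbered libraries deviated together in these same data. The main test did not use the numbers. With the number as a block 470 genes rose and 226 fell (4.29% and 2.06%), including 152 of the 153 and all 120.

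The sorted cells carried supporting-cell markers in both groups. Of 14 tested supporting-cell markers 1 fell and none rose. Wholly below the controls lay 4 of them, against 10.3% of all tested genes, and none lay wholly above. Their median log2 fold change was -0.40, and 5 of the 14 were positive. Their summed level was 17250, 12030 and 14450 CPM with DMSO and 10120, 11810 and 12400 CPM with TRULI, overlapping between groups. Sox2, Prox1 and Jag1, which mark these cells and their progenitors, were among the 5 positive members. Their log2 fold changes were 0.06, 0.05 and 0.09. Lfng, the gene whose promoter drives the sorted reporter, was at 656, 605 and 598 CPM with DMSO and 369.9, 646 and 343 CPM with TRULI, and the groups overlapped. Hair-cell markers were present in all 6 libraries, with a summed level of 188.8 to 304.5 CPM with DMSO and 213.4 to 984.3 CPM with TRULI. TRULI replicate 1 was the highest library and TRULI replicate 3 lay within the range of the controls. All 10 tested hair-cell markers had a positive log2 fold change (median 1.39), none was called, and 6 were called with the replicate block or without TRULI replicate 3. Neuronal markers summed to 12.6 to 29.3 CPM with DMSO and 12.7 to 99.6 CPM with TRULI, lowest among the treated libraries in replicate 3, and mesenchymal markers to 21.4 to 45.1 and 40.7 to 77.1 CPM. The macrophage genes Ptprc, Adgre1, Cx3cr1, C1qa, C1qb and Fcer1g and the endothelial genes Cldn5, Emcn and Tie1 had no count in any of the 6 libraries. All macrophage markers together summed to 0, 1.54 and 0 CPM with DMSO and 3.13, 7.33 and 0.53 CPM with TRULI, and endothelial markers to 0, 1.93 and 0 CPM and 4.38, 1.47 and 0 CPM. Markers of transitional and dark-cell epithelium summed to 356.7 to 404.3 CPM with DMSO and 156 to 306 CPM with TRULI. The largest part of the DMSO sums was Slc26a4, at 242, 248 and 241 CPM with DMSO and 57.6, 123 and 74.8 CPM with TRULI. The part of these other cells in the results below was not tested, and in sorted bulk cells fewer cells of a type cannot be told apart from less RNA per cell.

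Nrg1 came first among the increases by fitted log2 fold change. Nrg1 encodes neuregulin 1, a growth factor that signals through the receptors ErbB3 and ErbB4. It had no count in any DMSO library and was at 27.6, 29.9 and 33.7 CPM in the TRULI libraries, so that it was at least 26.6-fold higher against 3 counts per library (adjusted p = 0.000915). An annotated non-coding gene overlaps its exons, and the strand of the reads was not given. Of 10 tested ErbB ligands and receptors Nrg1 alone was called, and the receptor genes Erbb2, Erbb3 and Erbb4 had log2 fold changes of -0.05, -0.12 and 0.10.

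Further increases were in genes of secreted signals. Edn1, which encodes the peptide endothelin 1, was at 0.931, 0 and 0.293 CPM with DMSO and 19.1, 9.09 and 15.1 CPM with TRULI. All treated libraries stood far above the controls, which held few counts, and the ratio of summed counts was 39.1 with a 95% exact counting interval of 13.1 to 192 (adjusted p = 0.00575). Fgfbp1, whose product releases fibroblast growth factors from the matrix, went from 0.931, 0.385 and 0 CPM to 10.7, 7.91 and 6.36 CPM, again without overlap. Its ratio of counts was 22.3, with an interval of 7.37 to 110 (adjusted p = 0.0149). Fstl3, a secreted binder of activin, was at 35.4, 5.78 and 9.96 CPM in DMSO replicates 1 to 3 and 239, 46 and 143 CPM in the TRULI libraries of the same numbers. Both groups were highest in replicate 1, and the gene rose by 3.09 ± 0.67 on the log2 scale (SE, 3 libraries per group; adjusted p = 0.0312). Within 23 tested genes of TGF-beta and BMP signaling, Fstl3 was the only increase and Skil, which encodes a repressor of Smad-dependent transcription, the only decrease (3 and 1 with the replicate block; 79.2, 69.3 and 63 CPM against 34.1, 34 and 13.5 CPM, adjusted p = 0.0499).

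Outside the cell-cycle lists and Yap targets, the list with the highest share of increases was that of laminins and basement membrane genes. Of its 15 tested members 6 rose and none fell, against 2.18% and 1.1% of all tested genes. Their median log2 fold change was 1.24. Lamb3 encodes the beta chain of laminin-332, the laminin on which epithelial cells anchor. Its level was 1.4, 1.54 and 0.293 CPM with DMSO and 45.1, 22 and 21.7 CPM with TRULI, a change of 4.81 ± 0.58 (adjusted p = 0.00231). TRULI replicate 1 held the highest level and no treated library approached a control. Fn1, the gene of fibronectin, was at 8.85, 2.7 and 3.81 CPM against 65.1, 44 and 45.9 CPM, an increase of 3.37 ± 0.42 (adjusted p = 0.00268). Agrn, which encodes the heparan sulphate proteoglycan agrin, was at 97.8, 138 and 159.9 CPM in controls and 476, 368 and 312 CPM after TRULI, a change of 1.54 ± 0.25 (adjusted p = 0.00945). Hspg2, the gene of the related proteoglycan perlecan, had no count in any control and 5.32, 7.04 and 4.24 CPM in the treated libraries, at least 4.84-fold higher (adjusted p = 0.0123).

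Tnc, which encodes the matrix glycoprotein tenascin C, was also called, at 17.2, 10.8 and 12.6 CPM against 75.5, 46 and 23.1 CPM. The laminin chains Lamb1, Lamb2 and Lama5 were not called. Lamb1 had a log2 fold change of -0.90, Lamb2 of -0.18 and Lama5 of -0.08. With TRULI replicate 1 as the only treated library 4 of the 15 were called higher, and 3 were called without DMSO replicate 3 or TRULI replicate 2. Without DMSO replicate 2 only Lamb3 and Fn1 were.

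The promoters of Lamb3, Edn1, Eda2r and Samd4 are shown because these are the genes among the 15 largest increases whose windows hold GGAATG, the core of the element that Tead factors bind. Nrg1, Slc43a3, Col12a1 and Cryab, also among the 15, had no window that could be searched. Each line gives the 250 bases before an annotated start from the RefSeq promoter table, build GRCm38.p6, 5′ to 3′ on the gene's strand, and capitals mark GGAATG or its reverse complement. Lamb3 and Samd4 have another annotated start each, without a match.
Lamb3 promoter, chr1:193301993-193302242, plus strand: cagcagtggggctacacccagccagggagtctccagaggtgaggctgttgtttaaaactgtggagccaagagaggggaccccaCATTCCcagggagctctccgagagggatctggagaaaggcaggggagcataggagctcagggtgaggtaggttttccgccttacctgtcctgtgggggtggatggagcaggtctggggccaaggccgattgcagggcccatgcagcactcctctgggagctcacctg
Edn1 promoter, chr13:42301226-42301475, plus strand: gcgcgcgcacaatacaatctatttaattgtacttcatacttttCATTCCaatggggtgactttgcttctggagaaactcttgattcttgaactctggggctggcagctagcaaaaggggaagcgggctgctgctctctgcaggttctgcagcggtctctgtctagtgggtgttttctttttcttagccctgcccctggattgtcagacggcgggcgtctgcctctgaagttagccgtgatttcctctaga
Eda2r promoter, chrX:97377210-97377459, minus strand: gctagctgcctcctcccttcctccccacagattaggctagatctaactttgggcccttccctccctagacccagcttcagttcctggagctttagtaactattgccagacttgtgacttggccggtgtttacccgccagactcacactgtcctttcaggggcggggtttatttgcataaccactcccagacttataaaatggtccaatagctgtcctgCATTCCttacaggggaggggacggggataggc
Samd4 promoter, chr14:47068727-47068976, plus strand: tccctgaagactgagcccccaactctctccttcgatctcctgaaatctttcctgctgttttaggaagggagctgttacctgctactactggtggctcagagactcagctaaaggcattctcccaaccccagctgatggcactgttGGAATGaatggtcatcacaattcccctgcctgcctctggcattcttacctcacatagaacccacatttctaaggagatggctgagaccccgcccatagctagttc
The matches lie 167, 207, 32 and 105 bases before the start in this order, counted to the first base of the match.

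Over all genes, GGAATG on either strand was in a 300-base promoter window of 25.4% of the 122 increases outside the cell-cycle lists and Yap targets that had a window, of 18.95% of 95 decreases and of 14.1% of 8752 tested genes. Genes with several annotated starts had several windows, on average 1.48 for these increases, 1.4 for the decreases and 1.29 for all genes. TGANTCA was in windows of 5.74% of these increases, 11.6% of the decreases and 5.78% of all. With any base allowed at N, it is a looser form of the element that AP-1 factors bind. The E2F motifs TTTCCCGC and TTTGGCGC were in windows of 3.28% of these increases and 3.55% of all, and of 12.9% of 70 called cell-cycle genes and Yap targets. A pattern related to the CArG box, the element bound by serum response factor, was in 0.82% of these increases, 1.05% of the decreases and 1.53% of all. The CArG box allows A or T at every central position. The pattern searched fixed a single base at some of these positions and allowed any base at others. It therefore missed CArG boxes in windows of Cnn2, an increase, and Egr2, a decrease. How common CArG boxes are in these groups was not tested. All the shares given here are descriptions of letters in a window, and no test was made.

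**Figure D2:**
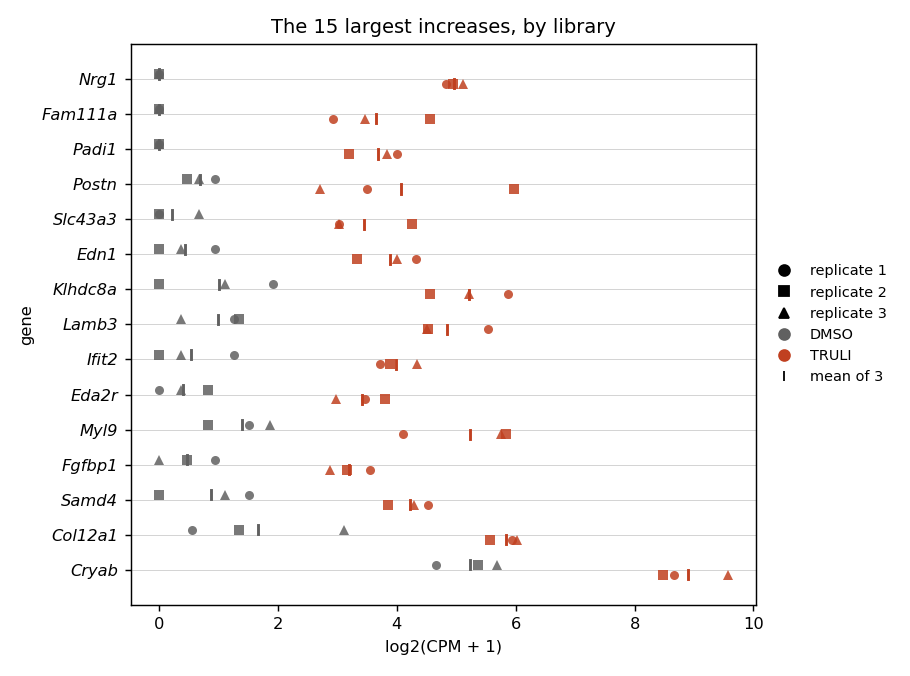
Levels of the 15 largest increases by library, as log2(CPM + 1), with DMSO libraries in grey, TRULI libraries in red, a symbol for each replicate number and a bar at the mean of 3. The grey symbols of Nrg1, Fam111a and Padi1 lie at 0, and in all 15 genes every red symbol lies to the right of every grey one.

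Other matrix genes rose individually. Postn, which encodes the matricellular protein periostin, was at 0.931, 0.385 and 0.586 CPM with DMSO and 10.3, 61.9 and 5.57 CPM with TRULI. TRULI replicate 2 held most of the signal, and the increase of 5.31 ± 1.04 (adjusted p = 0.0197) lost its call when any of 3 libraries was left out. Col12a1, a collagen that decorates fibrils, was at 0.466, 1.54 and 7.61 CPM against 60.1, 46.3 and 63.9 CPM, with DMSO replicate 3 the highest control. It rose by 3.99 ± 0.58 (adjusted p = 0.00563). Col18a1, a basement membrane collagen, was at 47, 40.1 and 56.5 CPM against 133, 116 and 146 CPM, an increase of 1.45 ± 0.22 (adjusted p = 0.00746). These were the only calls among 18 tested collagens, whose median was 0.09 (4 rose and 2 fell with the replicate block), and without DMSO replicate 2 neither was called. Of 13 tested matrix proteases and inhibitors Timp3, an inhibitor of metalloproteinases, rose (48, 47 and 62.4 to 126, 162 and 123 CPM, adjusted p = 0.00972) and the membrane protease Adam8 fell (97.3, 69 and 62.1 to 22.6, 13.8 and 25.7 CPM, adjusted p = 0.00854), and 5 were called higher with the replicate block.

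Genes of contractile actin and adhesion were higher in part. Myl9 encodes a regulatory light chain of non-muscle and smooth-muscle myosin. It was at 1.86, 0.77 and 2.63 CPM with DMSO and 16.3, 56.3 and 53 CPM with TRULI. TRULI replicate 1 was the lowest treated library and still above all controls, and the increase was 4.50 ± 0.59 (adjusted p = 0.00333). Cnn2, the gene of the actin-binding protein calponin 2, was at 2.33, 8.09 and 14.9 CPM against 37.6, 39 and 74 CPM, an increase of 2.51 ± 0.51 (adjusted p = 0.0231). These were the 2 calls among 24 tested actin genes, of which 21 were positive and 11 lay wholly above the controls, against 11% of all tested genes, with a median of 0.65, and 4 were called with the replicate block. Acta2 and Actg2, the smooth-muscle actins, had no count in any of the 6 libraries. Flna, which encodes the actin cross-linker filamin A, was at 60.1, 53.2 and 94 CPM against 285, 359 and 310.1 CPM and rose by 2.20 ± 0.26 (adjusted p = 0.00211). Itgb4, the beta chain of the integrin that binds laminin-332 in hemidesmosomes, was at 14, 20.4 and 26.6 CPM against 91.5, 73.6 and 72.4 CPM and rose by 1.94 ± 0.28 (adjusted p = 0.00521). Flna and Itgb4 were the only calls among 27 integrin and focal adhesion genes, whose median was -0.11, and both were called with TRULI replicate 1 as the only treated library. Without DMSO replicate 2, TRULI replicate 2 or TRULI replicate 3 only 1 of the 24 actin genes was called, and without DMSO replicate 2 Itgb4 was not.

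Genes of a further list from known Yap signatures also changed. Which of them the study plots was not examined. Of 21 tested, 5 rose and 1 fell, against 2.18% and 1.1% of all tested genes, 10 lay wholly above the controls, against 11% of all, and the median was 0.70. Marcks, which encodes an actin- and membrane-binding substrate of protein kinase C, was at 26.5, 37.8 and 22.8 CPM with DMSO and 105, 102 and 96.8 CPM with TRULI. The treated libraries were nearly equal, and the increase was 1.80 ± 0.25 (adjusted p = 0.00451). Gas6, a ligand of the receptor Axl, was at 3.73, 5.39 and 5.27 CPM against 14.4, 31.7 and 28.9 CPM, with TRULI replicate 1 the lowest treated library, and rose by 2.36 ± 0.42 (adjusted p = 0.0134). Igfbp3, a carrier of insulin-like growth factors, was at 779.5, 780.5 and 790.0 CPM against 1373, 1963 and 1591 CPM and rose by 1.06 ± 0.21 (adjusted p = 0.0231). The negative regulators of Yap Ptpn14 and Lats2 also rose, from 24.2, 49.3 and 26.9 CPM to 83.3, 78.3 and 92 CPM and from 7.92, 15.4 and 18.1 CPM to 39.1, 37.8 and 39.2 CPM. Crim1, a membrane protein that binds bone morphogenetic proteins, went the other way, at 352, 331 and 398 CPM against 156, 139.5 and 159.8 CPM (adjusted p = 0.00813). With each library left out in turn between 1 and 3 members were called higher, and with TRULI replicate 1 alone 1 was.

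Of 19 tested targets of the stress-activated factor p53, 4 were called higher and none lower, against 2.18% and 1.1% of all tested genes. The whole list had a median of 0.86, and 14 of 19 members lay wholly above the controls, against 11% of all genes. Eda2r, a receptor for ectodysplasin A2, was at 0, 0.77 and 0.293 CPM with DMSO and 10.0, 12.9 and 6.89 CPM with TRULI. The ratio of counts was 26.7 with a 95% exact interval of 8.89 to 132 (adjusted p = 0.0092). Gdf15, a secreted stress cytokine, had 1 count in the controls together and was at 5.95, 6.16 and 5.57 CPM with TRULI, a ratio of 48 with an interval of 8.29 to 1925 (adjusted p = 0.00966). Ccng1, which encodes cyclin G1, was at 102, 192 and 142 CPM against 316, 385 and 505 CPM and rose by 1.47 ± 0.27 (adjusted p = 0.0163). Phlda3, an inhibitor of Akt, was at 21.4, 13.9 and 15.2 CPM against 40.7, 31.7 and 48 CPM and rose by 1.25 ± 0.30 (adjusted p = 0.0452), a call that was lost with any library left out. Of the members that missed the threshold, Cdkn1a, the cell-cycle inhibitor p21, was at 71.2, 46.6 and 42.5 CPM against 112, 76.5 and 85.3 CPM and Mdm2 at 93.1, 90.2 and 102 CPM against 136, 139.5 and 182 CPM, without overlap in either gene. Btg2, an antiproliferative member, lay below the controls instead, at 751, 954 and 1248 CPM against 298, 542 and 518 CPM (adjusted p = 0.0542). With the replicate block 7 members were called higher and 1 lower, without DMSO replicate 2 or 3 only 1 was higher, and with TRULI replicate 1 alone 1 was. Among 12 genes of the Bcl2 family Bcl2l1, which encodes the survival factor Bcl-xL, was the only call (4 with the replicate block), at 50.8, 54.7 and 79 CPM against 155, 129 and 157 CPM (adjusted p = 0.0157).

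Single genes of lipid, nucleotide, detoxifying and amino acid metabolism rose, each the only call on its list. Scd1, the stearoyl-CoA desaturase that makes monounsaturated fatty acids, was at 113, 102 and 123 CPM with DMSO and 766, 658 and 1156 CPM with TRULI. It rose by 2.93 ± 0.26 with all treated libraries far above the controls (adjusted p = 0.000915), the only call among 14 genes of fatty acid synthesis (2 with the replicate block). The summed level of that list was 7288 to 8158 CPM with DMSO and 9534 to 12990 CPM with TRULI, with a median log2 fold change of 0.05. Ctps, a CTP synthase, was at 7.92, 16.9 and 14.3 CPM against 42.3, 60.4 and 71 CPM and rose by 2.13 ± 0.34 (adjusted p = 0.00813), 1 of 24 tested genes of serine, one-carbon and nucleotide synthesis (3 with the replicate block), which summed to 1163 to 1343 CPM with DMSO and 1544 to 1796 CPM with TRULI. Ephx1, which encodes microsomal epoxide hydrolase, was at 36.3, 26.6 and 29.9 CPM against 159.7, 119 and 166 CPM, an increase of 2.26 ± 0.24 (adjusted p = 0.00111). It was the only call among 21 Nrf2-linked genes, of which 9 were positive, with a median of -0.04. On that list 2 members lay wholly above the controls and 4 wholly below, against 11% and 10.3% of all tested genes. Its summed level was 6157, 7592 and 5574 CPM with DMSO and 4665, 4679 and 5225 CPM with TRULI. Chac1, an enzyme that degrades glutathione and is induced by amino acid stress, held 3 counts in the controls together and was at 19.1, 7.04 and 4.24 CPM with TRULI, a ratio of 26.5 with an interval of 8.8 to 131 (adjusted p = 0.0135). It was the only call among 18 amino acid response genes, whose median was 0.47 with 15 positive, and 4 were called higher with the replicate block and 3 by DESeq2. Scd1, Ctps and Ephx1 kept their calls with each library left out, and Chac1 in 4 of 6 fits, with a log2 fold change of 3.80 without TRULI replicate 1.

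The small heat-shock proteins Cryab and Hspb8 rose, and no larger chaperone on the list was called. Cryab, alpha-B crystallin, was at 24.2, 40.5 and 50.6 CPM with DMSO and 403, 357 and 758 CPM with TRULI. No control approached a treated library, and the increase was 3.70 ± 0.36 (adjusted p = 0.000915). Its exons overlap those of Hspb2. Hspb8 was at 4.66, 18.5 and 12 CPM against 60.8, 44.3 and 31 CPM and rose by 1.93 ± 0.43 (adjusted p = 0.037). With each library left out Cryab kept its call in all 6 fits and Hspb8 in 1. These were the calls among 15 cytosolic heat-shock chaperones, whose median was 0.07. None of 20 chaperones of the endoplasmic reticulum was called, and 3 of them were positive, with a median of -0.25. Wholly below the controls lay 6, against 10.3% of all tested genes, and none lay wholly above. Hspa5, the chaperone BiP, was at 2582, 2061 and 1832 CPM against 1676, 1257 and 1151 CPM (adjusted p = 0.165).

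Among the other 15 largest increases several are known for intracellular roles. Fam111a, a protease that acts at replication forks, and Padi1, which converts arginine to citrulline in proteins, had no count in any control. Fam111a was at 6.58, 22.6 and 10.1 CPM with TRULI, at least 11.4-fold above the controls (adjusted p = 0.00849), while Padi1 was at 15, 8.21 and 13.2 CPM, at least 10.6-fold higher (adjusted p = 0.00451). Slc43a3, a nucleobase transporter, had counts in DMSO replicate 3 only and was at 7.2, 18.2 and 7.16 CPM with TRULI. Its ratio of counts was 44 with an interval of 11.9 to 368 (adjusted p = 0.0109). Klhdc8a was at 2.79, 0 and 1.17 CPM against 57.6, 22.6 and 36 CPM (adjusted p = 0.00425), and Samd4, an RNA-binding repressor of translation, at 1.86, 0 and 1.17 CPM against 21.9, 13.5 and 18.6 CPM (adjusted p = 0.00966). For both, DMSO replicate 2 had no count and TRULI replicate 2 was the lowest treated library.

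Genes of ion transport were among the decreases. Of 18 tested connexins and ion homeostasis genes 3 fell and none rose, against 1.1% and 2.18% of all tested genes, 7 lay wholly below the controls, against 10.3% of all, and the median was -0.39. Slc26a4 encodes pendrin, an anion exchanger that secretes bicarbonate into endolymph. It was at 242, 248 and 241 CPM with DMSO and 57.6, 123 and 74.8 CPM with TRULI, and it fell by 1.52 ± 0.28 on the log2 scale (adjusted p = 0.0148). The controls were nearly equal and no treated library reached them. Kcnj16, an inward rectifier potassium channel, was at 348, 297 and 464 CPM against 126, 191 and 165 CPM, and fell by 1.20 ± 0.25 (adjusted p = 0.0243). The connexins Gjb2 and Gjb6, which couple supporting cells, had log2 fold changes of -0.13 and -0.45 and were not called. Slc26a4 also marks transitional epithelium and supplied the largest part of the marker sum given above for DMSO. Of the 5 tested markers of that epithelium 3 had a positive log2 fold change, and the median was 0.06. Without DMSO replicate 2 or DMSO replicate 3 none of the 18 was called lower, without TRULI replicate 1 or TRULI replicate 2 only 1 was, and with TRULI replicate 1 as the only treated library 2 were.

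**Figure D3:**
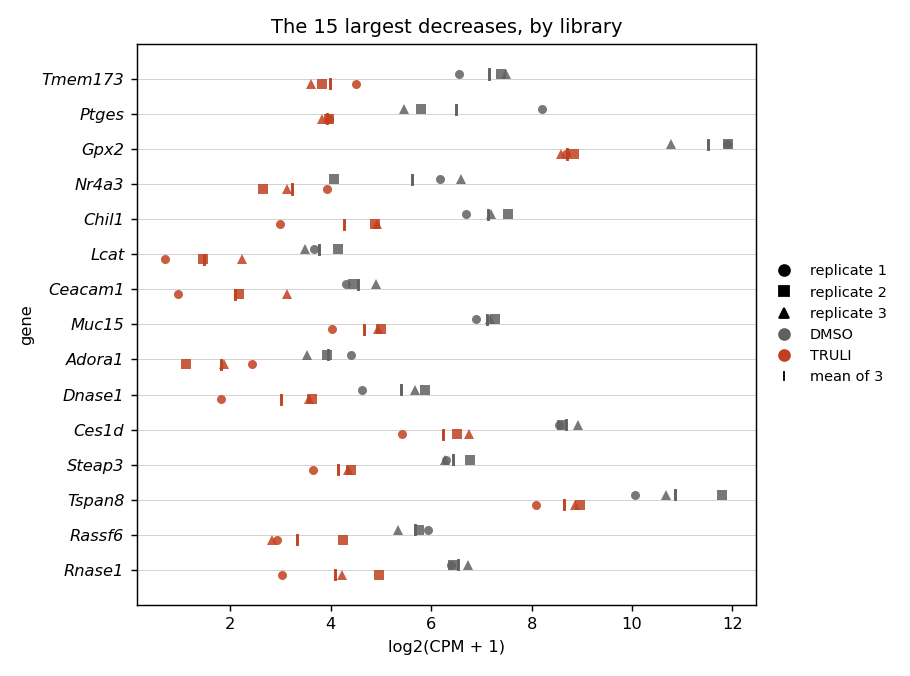
Levels of the 15 largest decreases by library, as log2(CPM + 1), drawn as for the increases. Every red symbol lies to the left of every grey one, and DMSO replicate 1 stands apart upward in Ptges.

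The largest decreases included several enzymes. Ptges, the inducible prostaglandin E synthase, was at 296, 54.7 and 43 CPM with DMSO and 14.7, 14.7 and 13.2 CPM with TRULI. DMSO replicate 1 was far above the other controls, the treated libraries were nearly equal, and the gene fell by 3.21 ± 0.65 (adjusted p = 0.0242). Without DMSO replicate 1 it fell by 1.78, and its call was lost without DMSO replicate 2, TRULI replicate 2 or TRULI replicate 3. Gpx2, a glutathione peroxidase of epithelia, was at 3785, 3857 and 1744 CPM against 412, 459 and 386 CPM and fell by 2.91 ± 0.32 (adjusted p = 0.00128). DMSO replicate 3 was the lowest control and still well above every treated library. Ces1d, a carboxylesterase, was at 372, 389.9 and 486 CPM against 42, 90.3 and 107 CPM and fell by 2.38 ± 0.32 (adjusted p = 0.00416). Steap3, a reductase of endosomal iron, was at 77.3, 108 and 76.4 CPM against 11.6, 20.2 and 19.4 CPM and fell by 2.35 ± 0.29 (adjusted p = 0.00241). Gpx2, Ces1d and Steap3 kept their calls with each library left out. Lcat, which esterifies cholesterol in lipoproteins, fell from 11.6, 16.6 and 10.2 CPM to 0.626, 1.76 and 3.71 CPM, Dnase1 from 23.8, 58.2 and 50.1 CPM to 2.5, 11.4 and 10.9 CPM and the secreted ribonuclease Rnase1 from 83.3, 85.9 and 106 CPM to 7.2, 30.2 and 17.8 CPM. In each of Lcat, Dnase1 and Rnase1, TRULI replicate 1 held the lowest level, and the adjusted p-values were 0.0384, 0.0275 and 0.0129. With each library left out in turn Lcat kept its call in 1 of 6 fits, Dnase1 in 3 and Rnase1 in 4.

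Among the other largest decreases, Muc15, Tspan8, Ceacam1 and Adora1 encode membrane proteins. Muc15, a membrane mucin, was at 117, 154 and 144 CPM with DMSO and 15.3, 31.1 and 29.7 CPM with TRULI and fell by 2.45 ± 0.29 (adjusted p = 0.00212). The tetraspanin Tspan8 was at 1069, 3557 and 1645 CPM against 272, 496 and 466 CPM and fell by 2.35 ± 0.42 (adjusted p = 0.0129). DMSO replicate 2 was the highest control of Tspan8 and the groups did not overlap. The adhesion receptor Ceacam1 was at 18.6, 20.8 and 28.7 CPM against 0.94, 3.52 and 7.69 CPM (adjusted p = 0.0402) and the adenosine receptor Adora1 at 20.02, 14.2 and 10.5 CPM against 4.38, 1.17 and 2.65 CPM (adjusted p = 0.0341). Chil1, a secreted chitinase-like lectin, was at 102, 183 and 145 CPM against 6.89, 28.4 and 29.4 CPM, with TRULI replicate 1 well below the other treated libraries, and fell by 2.73 ± 0.45 (adjusted p = 0.00952). Rassf6, a scaffold of the family that binds Mst kinases upstream of Lats, was at 60.5, 52.8 and 39.5 CPM against 6.58, 17.9 and 6.1 CPM and fell by 2.32 ± 0.42 (adjusted p = 0.0143). Epcam, the epithelial adhesion molecule, was at 5249, 6624 and 5196 CPM against 1679, 2307 and 2886 CPM, so that it fell by 1.32 ± 0.25 (adjusted p = 0.0174), the only call among 22 genes of cadherins, catenins and desmosomes. Of 22 tested claudins and tight junction genes 2 rose and none fell, against 2.18% and 1.1% of all tested genes. Only 7 of the 22 were positive, and the median was -0.21. Wholly above the controls lay 3 and wholly below 5, against 11% and 10.3% of all tested genes. The 2 increases were Cldn6, from 41.4, 27.7 and 47.7 CPM to 122, 132 and 245 CPM, and Cldn4, from 5.12, 10.0 and 12.3 CPM to 32.9, 24 and 28.6 CPM. The call of Cldn4 was lost with any library left out. Exons of another protein-coding gene overlap those of Adora1 (Mybph), Dnase1 (Trap1), Muc15 (Ano3), Gas6 (Tmem255b), Crim1 (Fez2), Fstl3 (Prss57) and Timp3 (Syn3), so these counts can hold reads of both.

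Immediate-early factors and feedback genes of growth factor signaling were lower in part. Of 16 tested AP-1 and immediate-early genes Fos, Ier2 and Egr2 fell and none rose, against 1.1% and 2.18% of all tested genes. The median of that list was -0.26. Fos, a subunit of AP-1, was at 2646, 2893 and 2723 CPM with DMSO and 892, 1318 and 1610 CPM with TRULI and fell by 1.12 ± 0.25 (adjusted p = 0.0326). Ier2 was at 159.7, 207 and 290.2 CPM against 62.3, 98.5 and 120.1 CPM (adjusted p = 0.0452) and Egr2, a zinc-finger factor, at 209.5, 185 and 319 CPM against 73.3, 67.4 and 143 CPM (adjusted p = 0.0462). In all 3 genes TRULI replicate 3 was the highest treated library. Without it 4 members were called lower, without any other single library at most 1 was, and with TRULI replicate 1 alone 1 was. Nr4a3, an orphan nuclear receptor that is also induced early, was among the largest decreases, at 71.7, 15.8 and 95.2 CPM against 14.1, 5.28 and 7.69 CPM (adjusted p = 0.0276), and lost its call in 4 of 6 such fits. Dusp6, the phosphatase that ERK signaling induces against itself, was at 1035, 1394 and 1257 CPM against 392, 440.0 and 486 CPM. It fell by 1.49 ± 0.21 (adjusted p = 0.00536), with each library left out too, and was the only call among 17 genes of ERK feedback and FGF receptors (2 fell with the replicate block). Hes1, a repressor downstream of Notch and a supporting-cell marker, was at 132, 111 and 138 CPM against 37.6, 67.4 and 71.6 CPM (adjusted p = 0.0469), the only call among 19 Notch genes (2 rose and 2 fell with the replicate block), and kept it in 1 of 6 fits.

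Innate immune genes moved in both directions. Tmem173 encodes STING, the adaptor that senses cyclic dinucleotides made in response to cytosolic DNA. It was at 93.1, 167 and 179 CPM with DMSO and 21.6, 13.2 and 11.1 CPM with TRULI and fell by 3.26 ± 0.34 (adjusted p = 0.000955). Irgm1, an interferon-induced GTPase, was at 118, 174 and 154 CPM against 65.5, 73.3 and 71.3 CPM and also fell (adjusted p = 0.0222). Ifit2, an interferon-induced RNA-binding protein, rose from 1.4, 0 and 0.293 CPM to 12.2, 13.8 and 19.4 CPM, an increase of 4.80 ± 0.74 (adjusted p = 0.00765). Of 21 tested genes of STING and interferon response these 3 were called, 8 lay wholly below the controls and 2 above, against 10.3% and 11% of all tested genes, and the median was -0.24. Without DMSO replicate 2, DMSO replicate 3 or TRULI replicate 1 only Tmem173 was called lower among them. Lcn2, lipocalin 2 of the acute phase, was at 16.3, 14.2 and 14.6 CPM with DMSO and 178, 95 and 99.4 CPM with TRULI, an increase of 3.03 ± 0.30 (adjusted p = 0.000915). Il33, an alarmin cytokine, was at 45.6, 44.3 and 22.6 CPM against 91.8, 120.2 and 69.2 CPM and rose (adjusted p = 0.0463). Serpina3n, a protease inhibitor of the acute phase, fell from 6.52, 22 and 25.8 CPM to 0.626, 2.35 and 1.32 CPM (adjusted p = 0.0134), and the complement gene C4b from 10.7, 5.39 and 16.4 CPM to 2.82, 1.76 and 2.12 CPM (adjusted p = 0.0483). Of 17 tested genes of complement, acute phase and inflammation these 4 were called, and with any library left out the call of C4b was lost. None of 13 genes of MHC class I antigen presentation was called (1 lower with the replicate block), with H2-K1 at 129, 74 and 135 CPM against 278, 88.8 and 274 CPM.

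Among genes of the otoconia and the overlying matrix, Otol1, which encodes the otoconial collagen otolin, fell from 1371, 1111 and 1067 CPM to 569, 456 and 512 CPM (adjusted p = 0.0124). Oc90, the otoconial scaffold otoconin 90, rose from 2.33, 2.31 and 2.63 CPM to 7.52, 28.4 and 20.9 CPM, with TRULI replicate 1 the lowest treated library (adjusted p = 0.0175). The median of the 11 tested members was -0.54. Espn, which encodes the actin bundler espin of hair-cell stereocilia, was the only call among 33 hair-cell genes, at 12.6, 5.78 and 4.39 CPM against 95.8, 17.9 and 31.3 CPM and highest in TRULI replicate 1 (adjusted p = 0.0391). Its list had a median of 0.56, and 9 members were called higher with the replicate block, 10 without TRULI replicate 3 and 7 with TRULI replicate 1 alone. Foxj1, the factor that drives motile cilia, was at 0.931, 1.16 and 2.63 CPM against 9.39, 13.8 and 10.9 CPM and rose by 2.75 ± 0.54 (adjusted p = 0.0213), 1 of 18 tested cilium genes with a median of 1.04, of which 3 were called with the replicate block and 5 without TRULI replicate 3. The lysosomal protease Ctsh was the only call among 27 genes of lysosome and autophagy, at 82.9, 77.8 and 91.9 CPM against 32.9, 21.1 and 50.1 CPM (adjusted p = 0.0411).

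Several programs showed no call at 5 days. None of 83 nuclear-encoded respiratory chain genes, 80 cytosolic ribosomal proteins, 40 ribosome biogenesis genes, 23 cholesterol genes, 20 glycolysis genes, 20 tRNA synthetases, 22 Wnt genes, 22 otic and Sox factors or 6 keratins and other intermediate filaments was called by edgeR. Their medians lay between -0.26 for the respiratory chain and 0.40 for the keratins. Krt8, a keratin of simple epithelia, was at 405, 490.0 and 486 CPM with DMSO and 814, 896 and 926 CPM with TRULI without overlap, and its log2 fold change of 0.93 ± 0.20 (adjusted p = 0.0303) was below the threshold of 1. Dkk3, a secreted protein of the Dickkopf family, was at 2215, 2311 and 2428 CPM against 1047, 1244 and 1365 CPM, and its change of -0.93 ± 0.20 (adjusted p = 0.0325) also stayed short of 1. Sox9, a factor of supporting cells, was at 715, 882 and 959 CPM against 575, 691 and 811 CPM, and the groups overlapped. With the replicate block 1 respiratory chain gene was called higher and 1 lower, and 3 Wnt genes were called higher, among them Wnt7a at 466, 603 and 892 CPM against 961, 1249 and 2295 CPM.

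The named genes differed in how far their calls rested on single libraries. Of the 74 called genes chosen by rule, 22 were called in each of the 6 fits without a library, among them Nrg1, Edn1, Lamb3, Fn1, Myl9, Flna, Scd1, Cryab, Lcn2, Tmem173, Gpx2, Muc15 and Dusp6. Another 14 kept the call in 5 fits, 8 in 4 and 12 in 3. The remaining 18 kept it in at most 2, among them Fos, Ier2, Egr2, Hes1, Skil, Igfbp3, Kcnj16, Ceacam1, Adora1, Il33, Irgm1 and Ctsh. Leaving out 1 library moved the fold change by over 1.5 times toward no change for 7 genes, among them Postn to a log2 fold change of 3.60 and Fam111a, both without TRULI replicate 2, Fgfbp1 to 3.61 without DMSO replicate 3, Tspan8 to -1.73 without DMSO replicate 2 and Espn to 1.74 without TRULI replicate 1. For 16 genes it moved as far away from no change.

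**Figure D4:**
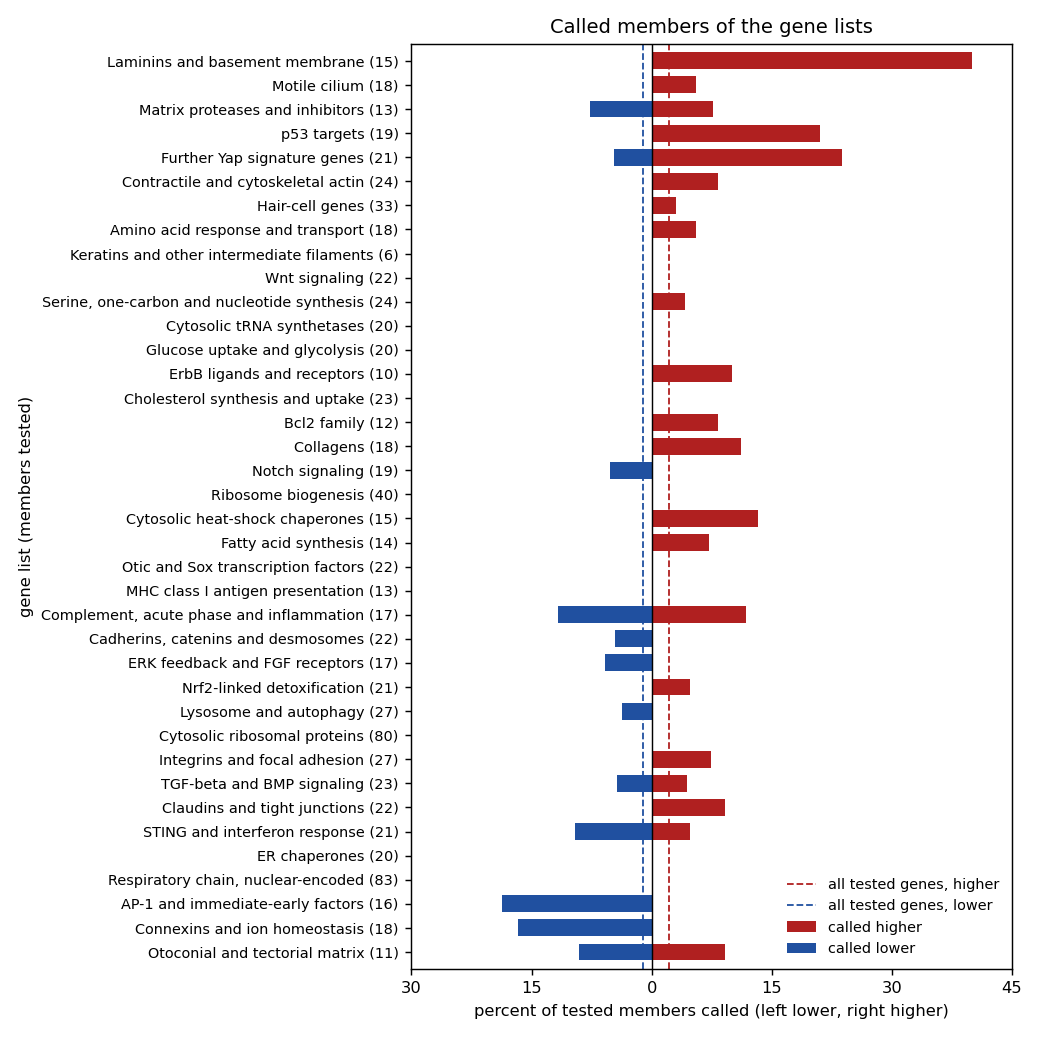
Percent of the tested members of each gene list that were called higher (red, right) or lower (blue, left), with the number tested in brackets and lists ordered by median log2 fold change. Dashed lines mark 2.18% higher and 1.1% lower over all 10952 tested genes, and the longest bars are the laminins and basement membrane genes to the right and the AP-1 and connexin lists to the left.

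By deposited name, the later libraries show the same genes 5 days after the end of treatment. Of the 153 increases 118 still had a positive log2 fold change, where 50% of all genes did, and their median was 0.56. Of the 120 decreases 81 were still negative, with a median of -0.23. No gene had an adjusted p under 0.05 at that time by edgeR, while 1379 of 11861 (11.6%) had an unadjusted p under 0.05. A test of the difference between the effects at the 2 times found 0 genes with an adjusted p under 0.05 by edgeR and 80 by DESeq2. An unadjusted p under 0.05 was found for 1120 genes (9.44%), including 72 of the 153 increases and 69 of the 120 decreases, which is a description because these genes were selected at 5 days. Leaving out DMSO withdrawal replicate 1 gave 89 genes in place of 0. Both DMSO libraries of the later time carry labels for TRULI at 5 days.

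Single genes differed in how they looked at the later time. Myl9 was at 15 and 5.56 CPM in DMSO withdrawal replicates 1 and 2 and 2.66 and 1.2 CPM in TRULI withdrawal replicates 1 and 2, lower with TRULI than without, in the opposite direction from 5 days. The difference between the times had an adjusted p of 0.0893 by edgeR. Tmem173 was at 67.5 and 87.6 and 50.2 and 117 CPM and Gpx2 at 1386 and 1616 and 800.4 and 1739 CPM, and in both genes the groups overlapped. Lcn2 did not overlap, at 247 and 156 CPM after DMSO and 639 and 474 CPM after TRULI. Nrg1 was at 0.183 and 3.42 CPM after DMSO, at 45.5 CPM in TRULI withdrawal replicate 1 and at 0 in replicate 2, so 1 library carried its difference. The 3 genes Fn1, Marcks and Ephx1, called at 5 days, had log2 fold changes of -0.47, -0.11 and -0.41 after withdrawal.

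**Figure D5:**
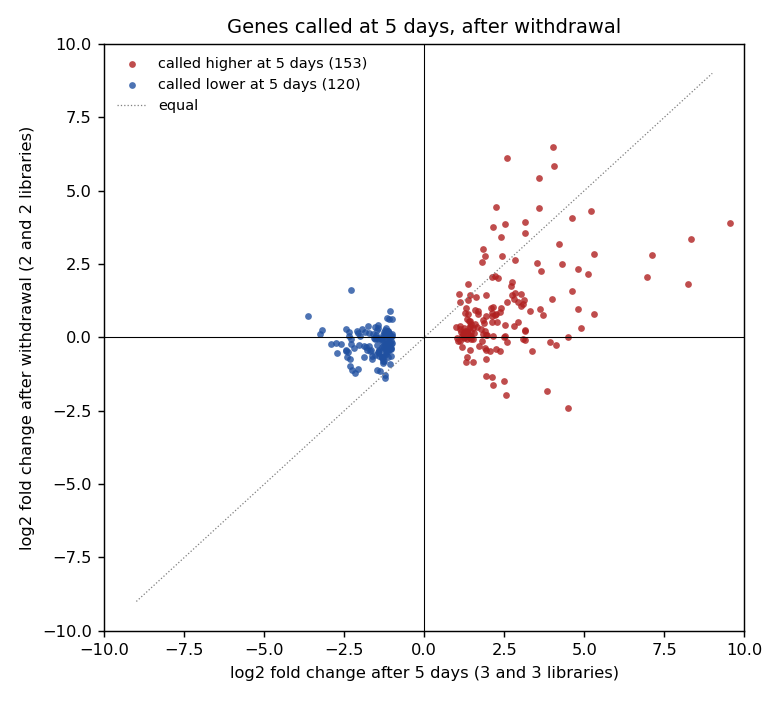
Log2 fold change of TRULI over DMSO at 5 days (horizontal) and after 5 days of withdrawal (vertical) for the 153 increases (red) and 120 decreases (blue), with a dotted line where both would be equal. Most points lie nearer to 0 on the vertical axis than on the horizontal one, with medians of 0.56 and -0.23 after withdrawal.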

How the data were processed

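RNA from sorted utricular supporting cells was sequenced in 10 libraries. The study names the QIAseq FX Single Cell RNA kit, whereas the labels name a TruSeq kit with poly(A) selection, and strand handling is not given in the sources used here. The authors mapped reads to GRCm38 (mm10) with STAR and deposited a table of expected counts for each library, with an effective length per gene, which was not used. The layout is that of RSEM, which neither source names, and these are raw expected counts, which the authors had not scaled. The labels and the table names differ for 4 libraries, and the names set the groups here.

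Expected counts were rounded to whole numbers. Of 48709 genes 48349 matched GENCODE M21 and 21695 were protein-coding. Genes passing filterByExpr were scaled by TMM and fitted with the quasi-likelihood test of edgeR 4.0.16 in R 4.3.3, with adjustment over all 10952 tested genes, and called at an adjusted p under 0.05 with a log2 fold change beyond 1. CPM use TMM factors from all 10 libraries, and standard errors were taken from the F statistic. A fold against controls with no count is a lower bound set at 3 counts per library. Where controls held 1 to 3 counts, the ratio has a 95% exact interval. Both cover counting error only. The difference between time points was an interaction contrast over all 10 libraries. DESeq2 1.42.0, other scalings and filters, the grouping by label, the replicate block and leaving out each library were alternatives. The code was tested on simulated counts. Each library differed from every other, as the chi-square per degree of freedom was at least 11.4.

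The replicate numbers come from the deposited names. Deviations from the group means correlated at 0.404, 0.205 and 0.332 between same-numbered TRULI and DMSO libraries, so the numbers were taken to pair the libraries. Correlations were below 0 for the other pairs. Deviations within a group sum to 0, so those negative values are no separate evidence of pairing. The comparison and the 52 gene lists were chosen with earlier results of these data known. Named genes were the 15 largest increases and 15 largest decreases among called genes outside the cell-cycle lists and a list of 6 Yap targets, with separate libraries and at least 20 counts in each library of the higher group, up to 4 called members of each list, and the 2 of highest CPM in a list without calls. Tnc, Ptpn14, Lats2, the markers, the uncalled members of the basement membrane, ErbB, p53 and connexin lists and those Yap targets were named outside that rule, with their values known. Some genes are not reported here. Promoters came from RefSeq (GRCm38.p6), matched for 8752 of 10952 genes. The figures used matplotlib 3.10.9.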

Additional observations from a re-analysis of the deposited data

How the results depend on the processing

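The counts of increases and decreases rest on 3 libraries per group and on which name a library is given. With the groups of the labels the numbers were 1 and 0 (100% higher), and with the only treated library on which both sources agree they were 113 and 44 (71.97% higher). DESeq2 gave 407 and 189, no filter on low counts gave 410 increases, and a fit of all 10 libraries gave 80 and 43. With the replicate block they were 470 and 226, and the block removed no call from the 74 called genes named by rule. With each library left out the increases ranged from 47 to 261, the decreases from 17 to 135 and the share that was higher from 65.91% to 80.58%. The other scalings and gene sets stayed within 1.5 times of these counts. The difference between time points was found for 80 genes by DESeq2, 140 without the filter and 28 with the replicate block within day, against 0, and for 0 to 89 with each library left out. Of the 74 genes 22 were called in all 6 fits without a library and none changed sign, while 49 lost their call without DMSO replicate 2. With the labelled groups 6 of those tested changed sign, with log2 fold changes of 0.034 for Rnase1, -0.23 for Igfbp3, 0.90 for Ier2, 1.21 for Egr2, 0.62 for Adam8 and 3.53 for Ctsh, because that grouping puts the 2 libraries named DMSO withdrawal among the treated ones. Genes under about 1 CPM are not resolved at this depth.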

Other observations

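Genes that do not code for protein were fitted only in the alternative that kept every biotype. Of 529 such genes 6 were higher and 9 lower with TRULI by edgeR, where 230 and 109 of 10984 protein-coding genes were in the same fit. Gm26880, a long non-coding RNA, was at 175, 160 and 121 CPM with DMSO and at 18.9, 29.1 and 34.5 CPM with TRULI, and no treated library reached a control (adjusted p = 0.0019). Gm4316, another such RNA, was at 80.7, 62.8 and 61 CPM and at 13.1, 17.1 and 24.4 CPM (adjusted p = 0.00765). Gm26578, whose exons overlap those of Nrg1, had no count in any control and 7.35, 5.47 and 7.62 CPM with TRULI, so that its reads and those of Nrg1 cannot be told apart without strand (adjusted p = 0.00765). The imprinted RNAs Meg3 and Rian, which come from one locus, were both called higher. Meg3 was at 11.6, 2.96 and 6.45 CPM with DMSO and 28.6, 19.9 and 30.2 CPM with TRULI (adjusted p = 0.0418), and Rian at 2.8, 0.986 and 0.992 CPM and 8.93, 11.7 and 7.84 CPM (adjusted p = 0.0319). These genes were chosen after their values were seen.

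Of the 153 increases 114 and of the 120 decreases 102 were on none of the gene lists, so most of the response outside the cell cycle was not covered by the programs described.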
